A study of Danio rerio with 4 samples.

Results

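The genes described here encode the subunits of the mitochondrial respiratory chain and of ATP synthase, measured in whole zebrafish embryos on Affymetrix arrays. They were taken from the platform annotation as the probe sets with a single gene symbol beginning with ndufa, ndufb, ndufc, ndufs or ndufv (complex I), sdha to sdhd (complex II), uqcr (complex III), cox4 to cox8 (complex IV) or atp5 (complex V, ATP synthase). This gave 92 probe sets of 85 genes, out of 8793 genes named on the array, and the brightest probe set stood for each gene. The symbols cover 39 genes of complex I, 7 of complex II, 7 of complex III, 14 of complex IV and 18 of complex V. The symbol patterns also caught 9 assembly factors (the ndufaf and sdhaf genes), which help to build complexes I and II without being part of the finished enzyme, so 76 of the 85 genes encode subunits or regulators of the enzymes themselves. A further 2 probe sets, annotated to ndufa9a with ndufa9b and to atp5fa1 with gcdha, carry several genes and were left out.

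Glucose-treated embryos were raised in 1% glucose in E3 embryo medium between 12 and 36 hours post fertilisation (hpf), and control embryos are labelled as control, with no other agent given. The protocol text on glucose is attached to the control samples as well, so the groups rest on the sample titles and the treatment label. Both groups were grown at the same temperature and were 36 hpf old, and neither strain nor genotype is given in the sources used here. Each group had 2 biological replicates with 1 array each, and how many embryos or clutches a replicate holds is not given either. The p-values therefore rest on the spread between these arrays, shared in part over probe sets of similar signal. The submitters' title concerns glucose and how blood stem cells are induced, and the comparison asks which transcripts differ between the groups.

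The respiratory chain sits in the inner mitochondrial membrane. Complex I takes electrons from NADH and complex II from succinate, both pass them through ubiquinone to complex III, and cytochrome c carries them on to complex IV, which reduces oxygen. Complexes I, III and IV pump protons across the membrane, and ATP synthase lets the protons flow back to make ATP. A few subunits are encoded in mitochondrial DNA, while the genes measured here lie in the nucleus.

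Most of these genes lay slightly lower in glucose, but none of the lower ones passed the test by itself, while 2 complex IV genes rose. Of the 85 genes, 74 had a lower mean signal in glucose and 11 a higher one, with a median log2 difference (glucose minus control) of -0.12, a signal 8.08% lower. The range ran from -0.37 for the ATP synthase gene atp5mj to 1.14 for the complex IV gene cox4i1l. Across the 8165 named genes tested, 49% had a difference below 0 and the median was 0.0060. In the same test 1.53% of these 8165 genes rose and 0.649% fell.

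Single genes were tested with limma (lmFit and eBayes, with the variance following signal), with Benjamini-Hochberg adjustment across 13628 probe sets and a threshold of 0.10. In that test cox4i1l and cox6b1 rose and 0 of the 85 genes fell, where 1.53% of all tested genes rose and 0.649% fell, and over all tested probe sets 1.29% rose and 0.712% fell. The count of 0 falls was 8 without control replicate 2, 1 without control replicate 1 and 1 with quantile normalization. At an unadjusted p under 0.05 the same fit gave 2 genes higher and 8 lower among the 85, against 6.87% of all tested genes higher and 5.16% lower. Without the signal-dependent variance, limma called 0 of the 13628 probe sets in either direction (613 higher and 539 lower at an unadjusted p under 0.05). The smallest adjusted p among the 85 genes was then 0.467.

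In 41 of the 85 genes both glucose arrays lay below both control arrays, and in 4 both lay above, against 20.6% and 21.8% of all tested genes. The difference was not spread evenly over the control arrays. When every gene was centred on its mean over the 4 arrays, the median over the 85 genes was -0.0440 and -0.0675 on the glucose arrays, against 0.106 and 0.0169 on the control arrays. Control replicate 1 therefore stood furthest from the other arrays, and it had the highest signal of the 4 in 58 of the 85 genes, against 14 for control replicate 2. Without control replicate 1 the median difference was -0.0676 and 60 genes lay lower, and without control replicate 2 the median was -0.17 and 73 genes lay lower.

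**Figure D1:**
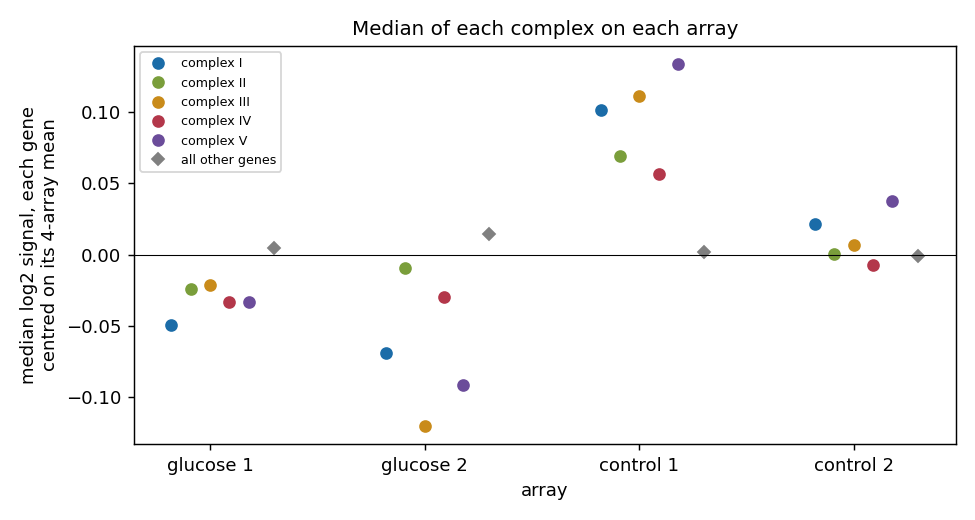
Median log2 signal of each complex on each of the 4 arrays, after centring every gene on its 4-array mean (vertical axis, log2 units). Circles are complexes I to V and the grey diamond is the median of all other tested genes. The glucose arrays lie below 0 for each complex, control replicate 1 lies highest, and control replicate 2 lies near 0.

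These are among the brighter probe sets of the array. Of the 85 genes, 72 had a mean log2 signal of at least 10, a level chosen after the values were seen, and their median percentile among tested genes was 93.8. In that bright range 66 of the 72 genes lay lower, with a median of -0.13. The other 1621 genes of the same range had 51.2% lower and a median of -0.0049. Of the 72 genes 1 rose and 0 fell, against 62 and 24 of the 1621. At an unadjusted p under 0.05 in limma with trend, 1 of the 72 lay higher and 8 lower, against 162 and 134 of the 1621. Both glucose arrays lay below both controls in 38 of the 72 and above in 3, against 406 and 387 of the 1621. The standard error of the log2 difference had a median of 0.112 over the 85 genes. The 95% interval of the difference stayed within 1.5-fold in both directions for 78 of the 85 genes. All members but sdhaf3, a complex II assembly factor, exceeded on every array the brightest of the 17 tag probe sets (intensity 118), array controls not meant to match any fish transcript.

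**Figure D2:**
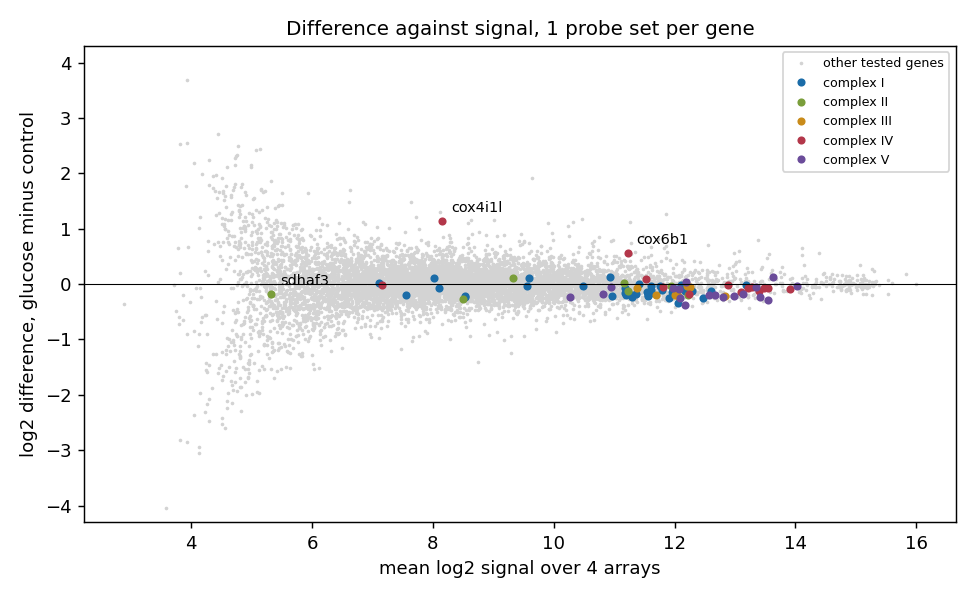
Log2 difference, glucose minus control (vertical axis), against mean log2 signal over the 4 arrays (horizontal axis), with 1 probe set per gene. Grey points are the other tested genes and coloured points the genes of complexes I to V; most coloured points lie on the bright side in a narrow band just below 0, with cox4i1l at 1.14 and cox6b1 at 0.56 above it.

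Complex IV, cytochrome c oxidase, held both genes that rose. The gene cox4i1l is annotated as a relative of the subunit 4 gene cox4i1, and subunit 4 carries an ATP-binding regulatory site of the enzyme in mammals. The gene cox4i1 itself is not among the 85 genes, and cox4i1l was dim for complex IV. Its mean log2 signal was 8.15, against a median of 13.0 over the 14 genes of the complex. The probe set of cox4i1l read 396 and 452 in glucose, against 219 and 168 in controls. Both glucose arrays were well above both control arrays, with group means of 424 ± 39.3 in glucose and 194 ± 36.3 in controls (SD, n = 2 each). That is 2.20-fold higher, or 1.14 ± 0.19 as log2 (difference ± SE, limma with trend, adjusted p = 0.00413). In the 4 fits that left out an array its log2 difference ran from 0.95 to 1.33. In any such fit 1 group has a single array, which is assumed to vary like the other group. The gene's own spread then comes from that other group, and limma also draws on the spread of other probe sets of similar signal.

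The gene cox6b1 encodes a subunit on the intermembrane side of the enzyme, where cytochrome c docks. It read 2892 and 2913 in glucose, against 2237 and 1729 in controls. The glucose arrays nearly coincided and lay above both controls, which differed from each other by more than the glucose pair did. The gene rose 1.48-fold, or 0.56 ± 0.13 as log2 (difference ± SE, limma with trend, adjusted p = 0.0405). Without glucose replicate 1 the adjusted p was 0.113 and without glucose replicate 2 it was 0.160, with differences of 0.57 and 0.56, and without control replicate 2 the difference was 0.38.

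Other genes for the same subunits did not pass. The paralogue cox4i2, which encodes the oxygen-regulated form of subunit 4 in mammals, read 163 and 121 in glucose, against 141 and 146 in controls. Its glucose arrays lay on either side of the controls, and the log2 difference of -0.0249 had a 95% interval from -0.54 to 0.49. The probe set of cox6b2 read 15093 and 14944 in glucose, against 17116 and 14878 in controls, a difference of -0.0876 with an interval from -0.29 to 0.12. The intervals of cox6b1 (0.29 to 0.84) and cox6b2 did not overlap, nor did those of cox4i1l (0.73 to 1.54) and cox4i2. The difference between the members of each pair was not tested. No sequences were compared, so whether labelled RNA of one copy also reaches the probe set of the other is not known.

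Of the other 12 genes of complex IV, 11 lay lower and 1 higher, between -0.18 and 0.0950, with adjusted p from 0.548 to 0.985. The lowest was cox7a2a, a small subunit, with 4577 and 4467 in glucose, against 5025 and 5222 in controls. Its groups did not overlap, yet the difference of -0.18 did not pass (adjusted p = 0.548). The higher one, cox7a2l, is a relative of that subunit that helps to join complexes III and IV into supercomplexes in mammals. It read 3049 and 3037 in glucose, against 2763 and 2937 in controls, a difference of 0.0950 (adjusted p = 0.812). The duplicates cox5aa and cox5ab, cox5ba, cox6a1, cox6c, cox7b, cox7c and cox8a lay between -0.14 and -0.0192. Over its 14 genes the median of complex IV was -0.0607, and it was -0.0216 without control replicate 1.

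**Figure D3:**
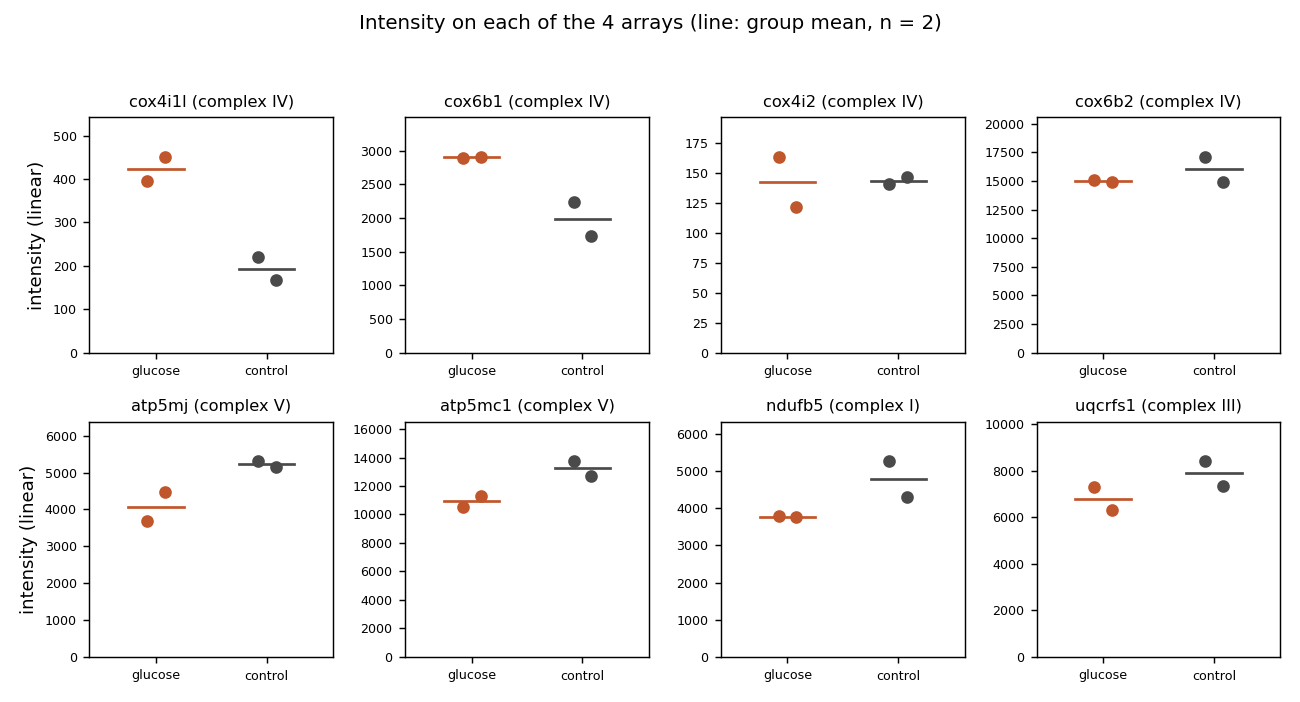
Intensity on a linear scale from 0 (vertical axis) on each of the 4 arrays for 8 genes, with glucose left and control right. Points are arrays and lines are group means (n = 2 each). The genes cox4i1l and cox6b1 lie higher in glucose, and cox4i2 and cox6b2 overlap between groups. The genes atp5mj, atp5mc1, ndufb5 and uqcrfs1 lie lower in glucose without overlap, in uqcrfs1 by very little.

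ATP synthase, complex V, lay lower by a median of -0.19 over 18 genes, 16 of them lower. None of the 18 passed (limma with trend, adjusted p from 0.162 to 0.951). In 10 of the 18 both glucose arrays lay below both control arrays, against 20.6% of all tested genes. The smallest p belonged to atp5mj, a small membrane subunit, with 3673 and 4461 in glucose, against 5319 and 5159.9 in controls. The difference was -0.37 ± 0.11 as log2 (SE, limma with trend, adjusted p = 0.162), and it was -0.23 without glucose replicate 1.

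The rotor of ATP synthase is a ring of c subunits, encoded by the atp5mc genes. The c subunit gene atp5mc1 read 10548 and 11301 in glucose, against 13767 and 12737 in controls. The groups were apart, and the difference was -0.28 with an interval from -0.48 to -0.0761 (adjusted p = 0.237). The adjusted p was 0.0879 with quantile normalization. Its relatives encode the same mature protein in mammals. Of these, atp5mc3a read 6616 and 5596 in glucose, against 7073 and 6884 in controls, and atp5mc3b differed by -0.0284, with overlapping groups.

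The peripheral stalk, which holds the catalytic head still against the rotor, was covered by atp5pb, atp5pd and atp5pf. In each of these 3 genes both glucose arrays lay below both controls, as they did in 20.6% of all tested genes. The differences were -0.23 for atp5pb (adjusted p = 0.394), -0.23 for atp5pd (adjusted p = 0.412) and -0.19 for atp5pf (adjusted p = 0.506). The 6 small membrane subunits (atp5l, atp5md, atp5mea, atp5meb, atp5mf and atp5mj) had a median of -0.13, and atp5meb was the higher one of them, at 0.0394.

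The F1 part, the catalytic head together with the central stalk, was covered by 4 genes, with a median of -0.0702. Its catalytic beta subunit atp5f1b read 13382 and 13117 in glucose, against 11229 and 12999.7 in controls. Both glucose arrays lay above both controls, and glucose replicate 2 exceeded control replicate 2 by little. The difference was 0.13 with an interval from -0.0752 to 0.34 (adjusted p = 0.667). The small epsilon subunit atp5f1e read 4188 and 3803 in glucose, against 4688 and 4772 in controls, a difference of -0.24 (adjusted p = 0.385). The central stalk subunits atp5f1c and atp5f1d overlapped between groups, at -0.0597 and -0.0806. The inhibitor genes atp5if1a and atp5if1b encode a small protein that blocks ATP breakdown when the proton gradient collapses, and they lay at -0.17 and -0.24, with the groups apart in atp5if1b but not in atp5if1a.

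Complex I, NADH dehydrogenase, is the largest enzyme of the chain. Of its 39 genes 35 lay lower, with a median of -0.13, and none passed (limma with trend, adjusted p from 0.244 to 0.996). In 19 of the 39 both glucose arrays lay below both controls, and in 0 both lay above, against 20.6% and 21.8% of all tested genes. Setting aside the 6 assembly factors, 32 of the 33 genes lay lower.

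Complex I has a catalytic core, which carries the flavin and the iron-sulphur clusters, and many accessory subunits around it. The core genes on the array were ndufs1, ndufs7, ndufs8a, ndufv1 and ndufv2, with a median of -0.0350. The iron-sulphur subunit ndufs1 read 2945 and 2707 in glucose, against 3209 and 3276 in controls, and the flavin subunit ndufv1 read 2505 and 2454 in glucose, against 2939.6 and 2679.9 in controls. Both genes had groups that did not overlap, with differences of -0.20 (adjusted p = 0.533) and -0.18 (adjusted p = 0.602). In ndufs7 and ndufs8a, which encode the iron-sulphur subunits nearer to ubiquinone, the groups overlapped, at -0.0225 and -0.0350. The core gene ndufv2 was the higher one, at 0.13 on its brightest probe set (2154 and 1934 in glucose, against 1938 and 1805 in controls) and at -0.0208 on its other one. Without glucose replicate 1 that other probe set was the brighter one and stood for the gene, at -0.0395.

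The 28 genes counted as accessory to complex I by their names had a median of -0.13, and each lay lower, from -0.33 to -0.0047. They include ndufa4a and ndufa4b, whose protein is known as a part of complex IV in mammals. The smallest p was that of ndufb5, a subunit of the membrane arm, with 3789 and 3763 in glucose, against 5276 and 4291 in controls. The control arrays differed by far more than the glucose arrays, and both lay above them. The difference was -0.33 ± 0.12 (SE, adjusted p = 0.244). Leaving out control replicate 1 gave -0.18, and leaving out control replicate 2 gave -0.48. Next came ndufb8, a membrane arm subunit often used as a marker of assembled complex I, with 5476 and 4998 in glucose, against 6260.2 and 6180.2 in controls. Its groups did not overlap, and the difference was -0.25 (adjusted p = 0.354).

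The acyl carrier protein of mitochondria is also a complex I subunit and is encoded by ndufab1a and ndufab1b. The gene ndufab1b read 3615 and 3416 in glucose, against 4512 and 3834 in controls, a difference of -0.24 (adjusted p = 0.431). The 3 probe sets of ndufab1a disagreed. The brightest read 2198 and 2348 in glucose, against 2190.2 and 2583 in controls, a difference of -0.0663, and another differed by -0.0234. The remaining one read 1872 and 1807 in glucose, against 2643 and 2374 in controls, and fell by 0.45 as log2 (adjusted p = 0.0882 in limma with trend). The name of the brightest ends in x_at and those of the others in a_at. Both suffixes mark probes that can match several transcripts, but not in the same way, and which transcripts each matches was not checked. The probe set that stood for the gene did not pass (adjusted p = 0.892).

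The gene ndufa4a carries a complex I name, although its protein is known as a part of complex IV in mammals. It read 8753 and 9765 in glucose, against 9881 and 8759.7 in controls, with overlapping groups and a difference of -0.0091 whose interval ran from -0.23 to 0.21. Its duplicate ndufa4b differed by -0.0797, and both genes are kept in all counts and medians of complex I given here. The 6 complex I assembly factors were dimmer and went both ways. In ndufaf2, ndufaf4 and ndufaf5 the differences were -0.19, -0.24 and -0.22, and in ndufaf1, ndufaf6 and ndufaf8 they were 0.11, 0.11 and 0.0207.

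Complex III, the cytochrome bc1 complex, lay lower in each of the 7 genes caught by the symbol patterns, with a median of -0.19. None of the 7 passed (limma with trend, adjusted p from 0.488 to 0.938). The median was -0.11 without control replicate 1. The Rieske iron-sulphur protein gene uqcrfs1 read 7280 and 6308 in glucose, against 8417 and 7332 in controls. The groups were apart by little, since glucose replicate 1 lay just under control replicate 2, and the difference was -0.21 ± 0.11 (SE, adjusted p = 0.488). The small subunit gene uqcrb, near the ubiquinone site, read 3956 and 3975 in glucose, against 4850.1 and 4345 in controls, a difference of -0.21. The small subunit gene uqcrq read 3894 and 3791 in glucose, against 4452 and 4389 in controls, a difference of -0.20. Both genes had groups that did not overlap. The hinge protein gene uqcrh lay at -0.0511. The core protein genes uqcrc1, uqcrc2a and uqcrc2b, at -0.0389, -0.0669 and -0.19, made up the rest of the 7. The cytochrome c1 gene cyc1 also belongs to complex III but lies outside the symbol patterns, and it differed by 0.0129. A second, dim probe set of uqcrc2a read 58.4 and 99.3 in glucose, against 44.2 and 54.7 in controls, below the brightest tag probe set on every array.

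Complex II, succinate dehydrogenase, links the chain to the citric acid cycle. Its 4 subunit genes had a median of -0.0796. The membrane anchor gene sdhc read 4465 and 4404 in glucose, against 5278 and 4920.0 in controls, with the groups apart and a difference of -0.20 (limma with trend, adjusted p = 0.497). The flavoprotein gene sdha read 2204 and 2372 in glucose, against 2505 and 2483 in controls, a difference of -0.13. The iron-sulphur gene sdhb and the other anchor gene, sdhdb, had overlapping groups, at -0.0336 and 0.0126. The assembly factor sdhaf2, which helps to attach the flavin to sdha, read 329 and 328 in glucose, against 414 and 378 in controls, a difference of -0.27 (adjusted p = 0.586). The assembly factor sdhaf4 lay at 0.11. The dim sdhaf3 read 54.5 and 26.1 in glucose, against 55.5 and 32.5 in controls, so its interval from -1.53 to 1.19 was the widest of the 85 genes. Over all 7 complex II genes the median was -0.13, and without control replicate 1 it was 0.0153, on the other side of 0.

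**Figure D4:**
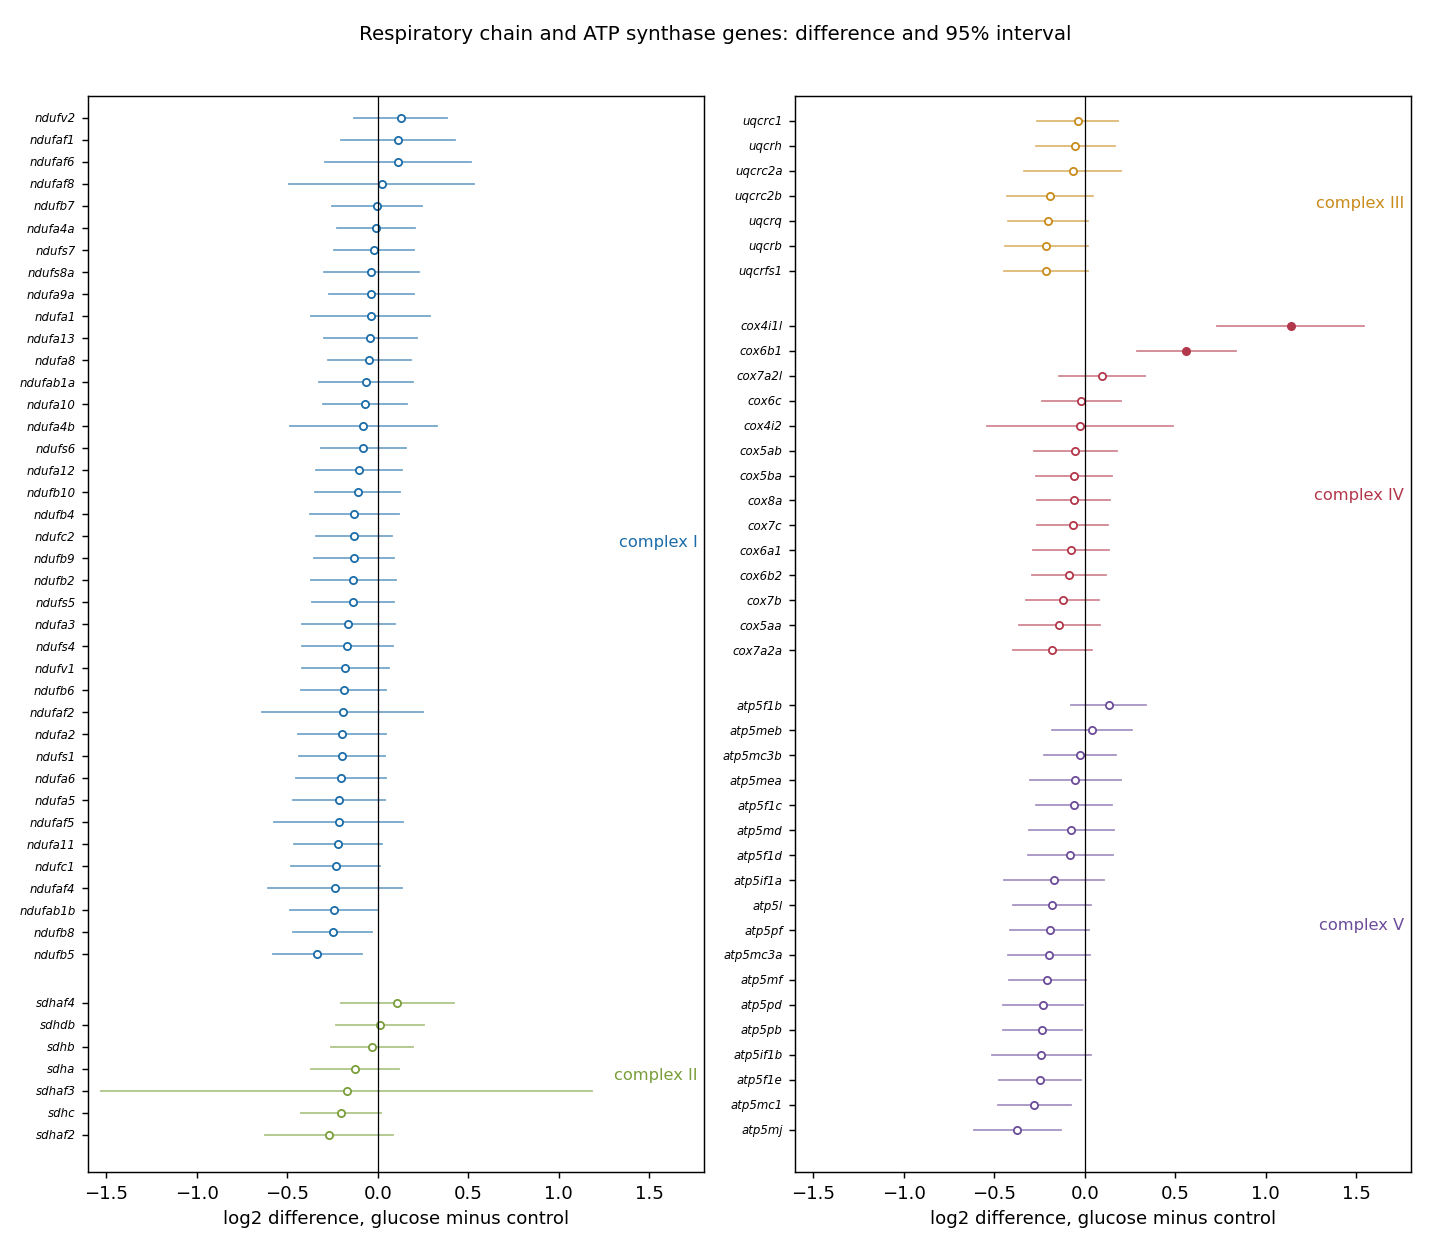
Log2 difference, glucose minus control (horizontal axis), of each of the 85 genes, ordered within each complex, with its 95% interval from limma with trend as a line. Filled points passed at adjusted p under 0.10 (cox4i1l and cox6b1) and open points did not; most open points lie left of 0, with intervals that cross it.

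Other genes of mitochondrial energy metabolism were set beside these, from lists chosen with earlier results known. Of 59 genes of the mitochondrial ribosome, which translates the subunits encoded in mitochondrial DNA, 42 lay lower, with a median of -0.11. Where 0.649% of all tested genes fell, 1 of the 59 did. That gene, mrpl32, read 304 and 277 in glucose, against 467 and 468 in controls, and fell by 0.69 as log2 (adjusted p = 0.0559 in limma with trend). Of 19 further assembly factors of the chain, 13 lay lower, with a median of -0.0960, and 0 passed. The smallest p there belonged to the complex IV assembly gene cox14, at -0.43 (adjusted p = 0.254), then coa6, which serves copper delivery to complex IV, at -0.47 (adjusted p = 0.301).

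A further list held 11 genes for nucleotide and phosphate carriers, outer membrane channels, uncoupling proteins and the mitochondrial creatine kinases. Of the 11, 9 exceeded on every array the brightest tag probe set, and slc25a3a and ckmt2a exceeded it on none. The dim slc25a3a, counted as higher, read 14.5 and 39.2 in glucose, against 44.3 and 5.6 in controls. With these included, 9 of the 11 lay higher, with a median of 0.13. Where 1.53% of all tested genes rose, 1 of the 11 did. This was the creatine kinase gene ckmt1, not a transporter, which read 1106 and 1135 in glucose, against 655 and 741 in controls, 1.61-fold higher (limma with trend, adjusted p = 0.0191). The phosphate carrier gene slc25a3b read 13214 and 13344 in glucose, against 12408 and 10862 in controls, a difference of 0.19 (adjusted p = 0.476). The main adenine nucleotide carrier gene on the array, slc25a4, differed by 0.0288.

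Of 13 genes for electron carriers and ubiquinone synthesis, 6 lay lower and 7 higher, with a median of 0.0538, and 0 passed. This count of 0 and those of the next lists stand beside 1.53% of all tested genes that rose and 0.649% that fell. Cytochrome c (cycsb) overlapped between groups at -0.0339. The smallest p was that of the flavoprotein gene etfa, at -0.32 (limma with trend, adjusted p = 0.297). Next came coq7, a step of ubiquinone synthesis, at -0.43 (adjusted p = 0.326). Then came coq3, at 0.45 with overlapping groups (adjusted p = 0.434). Of 12 regulators of mitochondrial biogenesis, 8 of them above the brightest tag probe set on every array, 5 lay lower and 7 higher. The median of the 12 was 0.0926, with 0 passing. Among them nrf1, a transcription factor of many respiratory genes in mammals, differed by -0.0321, and the mitochondrial DNA packaging gene tfam by -0.0620. The coactivator gene pprc1 read 336 and 333 in glucose, against 282 and 229.6 in controls, a difference of 0.39 (adjusted p = 0.426). Of 8 genes for pyruvate dehydrogenase, its kinases and its phosphatase 5 lay lower, with a median of -0.22, and 0 passed. On every array 6 of the 8 exceeded the brightest tag probe set. The kinase gene pdk2b (-0.29) and the phosphatase gene pdp2 (-0.71), both counted as lower, exceeded it on none. The median of -0.22 includes both and lies midway between pdk2b and the subunit gene pdhx (-0.15), so it rests in part on dim genes. The enzyme's subunit genes pdha1a and dlat differed by -0.37 and -0.31 (adjusted p = 0.497 and 0.561), and its subunit gene dldh by 0.28 (adjusted p = 0.404).

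Of the 13 proteins encoded in mitochondrial DNA, 1 is named in the annotation of the array's probe sets, COX1, the catalytic subunit of complex IV, which was looked up after the values were seen. Its 3 probe sets were very bright, and none passed. The brightest read 61806 and 61926 in glucose, against 55774 and 53421 in controls, a difference of 0.18 (limma with trend, adjusted p = 0.393). Another read 55667 and 58758 in glucose, against 50383 and 42155 in controls, a difference of 0.31 (adjusted p = 0.140). In the remaining one the groups overlapped, with 34546 and 32598 in glucose, against 28679 and 36028 in controls, a difference of 0.0621 (adjusted p = 0.876).

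The arrays measured whole embryos, in which fewer cells of a type and less RNA per cell cannot be told apart. Markers of several cell types are given here beside the respiratory genes. Of 9 neuron markers 8 lay lower in glucose, with a median of -0.18, and their summed intensity was 17154 to 18066 in glucose, against 19534 to 20347 in controls. Of 10 skeletal muscle markers 8 lay lower, with a median of -0.0543 and overlapping sums of 268442 to 278309 in glucose, against 272280.0 to 297693 in controls. All 6 epidermis markers lay lower, with a median of -0.13 and sums of 59626 to 60319 in glucose, against 60373 to 67051 in controls. None of these 25 markers passed, where 1.53% of all tested genes rose and 0.649% fell.

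Markers lay higher for 3 other cell types, and their counts of genes that rose stand beside 1.53% of all tested genes. All 7 primitive red cell markers were higher, with a median of 0.69, and 5 rose, with sums of 73730 to 78928 in glucose, against 58443 to 62393 in controls. All 3 heart markers were higher, with a median of 0.34, none passing, and sums of 2578 to 2602 in glucose, against 1881 to 2093 in controls. Of 7 liver, gut and yolk markers 6 were higher and 3 rose, with a median of 0.27 and sums of 117042 to 122747 in glucose, against 95484 to 106064 in controls. Of the listed markers, 9 of 11 neuron, 10 of 13 skeletal muscle, 6 of 7 epidermis, 7 of 9 red cell, 3 of 7 heart and 7 of 8 liver, gut and yolk markers were measured. None of these was at 0, and each lay above the brightest tag probe set on every array. The part of these cell types in the differences of the respiratory genes was not tested.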

How the data were processed

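Per the labels' protocols, Trizol was used to extract total RNA of whole embryos, and the target was biotin-labelled. The deposited values are linear intensities, 1 for each of 15617 probe sets on each array. The submitters' processing notes name GCRMA, and a mean trimmed of 2% on both sides equals 500.2 on every array, a feature of another method. Which method made the values, and whether a background was subtracted, is therefore unknown, and dim values are noisy. The number of arrays limits the precision.

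Groups and replicate numbers came from the sample titles. The 115 control probe sets were left out, log2 was taken with no further scaling, and probe sets reaching a log2 of 5 on 2 or more of the 4 arrays entered the fit, in all 13628 and all 85 genes (91 of their 92 probe sets). The 2 groups were compared in limma 3.58.1 (R 4.3.3), with an intensity trend, two-sided and without covariates. A gene was said to rise or fall at an adjusted p under 0.10. Lists are described by counts and medians without a set test. Code was tested on simulated arrays. Of 10795 single-gene probe sets, 10711 matched RefSeq (GRCz12tu) by gene identifier, which changed 0 of the symbols described. Plots used matplotlib 3.10.9.

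The members, lists and the use of the trend were chosen with earlier results of these data known. Genes were named where they passed, and per complex for the brightest signal, the 2 smallest p and the extreme differences, then isoform and duplicate pairs; those of other lists by smallest p. Genes named outside that rule, among them COX1, slc25a4, cycsb, nrf1, tfam, uqcrq, ndufs1, ndufv1 and the stalk and F1 subunits, were added for their roles after their values were seen. The 14 alternatives left out each array, added the replicate number as a block, or changed the filter, scaling, variance, threshold or probe set rule.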

Additional observations from a re-analysis of the deposited data

How the results depend on the processing

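Among the 85 genes, 2 rose and 0 fell. Without glucose replicate 1 or 2, 1 rose (cox4i1l), and without the intensity trend 0 rose (adjusted p = 0.467 for cox4i1l and 0.575 for cox6b1). Falls numbered between 0 and 8 when an array was left out (atp5mj alone without control replicate 1; atp5mc1, atp5mf, atp5mj, atp5pb, atp5pd, ndufab1b, ndufb5 and uqcrfs1 without control replicate 2), where the group with a single array is assumed to vary like the other, and 1 with quantile normalization (atp5mc1). The median over the 85 genes ranged from -0.17 to -0.0676 across the fits that left out an array, those of complexes I, II, III, IV and V from -0.17 to -0.0789, -0.13 to 0.0153, -0.22 to -0.11, -0.0973 to -0.0216 and -0.23 to -0.12, and complex II turned to 0.0153 without control replicate 1. The complex II median was also -0.0796 with a filter at a mean log2 of 6 or at the brightest tag probe set, which drops sdhaf3. Between 60 and 74 genes lay lower under the 14 alternatives, a count added after seeing the data. Quantile normalization gave a median of -0.0998 and median centring -0.13. Same-numbered arrays did not deviate together (r = -0.0228 over 13628 probe sets). A single such correlation cannot show whether they shared a clutch or batch, which the labels do not give. With the replicate block 2 genes rose and 0 fell, with the same 2 genes called. Only the 31 members named by the rule were followed through the alternatives, so the signs of genes named outside it were not checked. Of the 31, some that did not pass crossed 0 when an array was left out. These were ndufa4a (-0.0959 to 0.0778), ndufa4b (-0.28 to 0.12), uqcrc1 (-0.11 to 0.0315), atp5mc3b (-0.11 to 0.0507), cox4i2 (-0.24 to 0.19) and uqcrc2a (-0.24 to 0.10). Others were atp5mea (-0.11 to 0.0047), cox5ab (-0.11 to 0.0076), cox6b2 (-0.19 to 0.0136), atp5meb (-0.0054 to 0.0843) and ndufab1a (-0.19 to 0.0526). In ndufv2 (-0.0395 to 0.20) the lower value comes from its other probe set, the brighter one without glucose replicate 1. With the mean of all probe sets uqcrc2a stood at 0.28. The cause was not tested.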
